A study of Mus musculus with 16 samples.

Results

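Immediate early genes are transcribed within minutes of a mitogen, a cytokine, stretch or another stress, without the need for newly made protein, and their mRNAs are short-lived. Extracellular signals reach them through MAP kinases and through transcription factors already present in the cell, such as serum response factor and CREB, and many of their products are themselves transcription factors that start a slower wave of target genes. In the vessel wall they are best known for the response of smooth muscle and endothelial cells to injury, growth factors and flow. The 10 genes described here were chosen by name and not by any measured value. They are the AP-1 subunits Fos, Fosb, Jun and Junb, the related factor Atf3, the zinc-finger factor Egr1, the nuclear receptor Nr4a1, and Ier2, Ier3 and Btg2. All 10 were found among the 54532 genes of the count table, 1 row each.

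RNA of the aorta was sequenced from 16 male C57BL/6J mice, 12 weeks old at surgery, with 1 library per mouse and 4 mice in each of 4 groups. In 5/6 Nx mice, a model of CKD, the poles of the left kidney were ligated and the right kidney was later removed, whereas Sham mice had the operations without ligation or removal. After recovery the mice received their diet for 30 days according to the labels. Sham and 5/6 Nx-HPi-Lp mice were fed 2% phosphorus and 2.5% protein, 5/6 Nx-HPi-Hp mice 2% phosphorus and 18% protein, and 5/6 Nx-LPi-Lp mice 0.3% phosphorus and 2.5% protein. Thus every 5/6 Nx group lost kidney mass, the Sham group shared its diet with 5/6 Nx-HPi-Lp only, and the other 2 groups differ from Sham in surgery and diet together. The study treats 5/6 Nx-HPi-Lp as the calcifying group and the other groups as its controls. The whole aorta was ground, so levels are averages over all its cells, and fewer cells of a type cannot be told apart from less RNA per cell.

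Library totals ran from 13659525 to 57276915 counts. The lowest count of any of these genes in any library was 87 (Fosb), and counting error was at most 10.7% of a value. The libraries also differed in makeup. The summed level of the 7 smooth muscle markers was 21708 to 25826 CPM (a gene's counts relative to all counts of its library, after TMM scaling) in Sham, 2227 to 5046 in 5/6 Nx-HPi-Lp, 6548 to 23251 in 5/6 Nx-HPi-Hp and 7606 to 17704 in 5/6 Nx-LPi-Lp. None of these markers was at 0, so the labelled tissue was present in every library. Heart muscle markers summed to 6286 CPM in 5/6 Nx-LPi-Lp replicate 2, and to 800 and 448 CPM in 5/6 Nx-HPi-Hp replicates 1 and 2. In every other library that sum was at most 137 CPM. Skeletal muscle markers summed to 381 and 202 CPM in 5/6 Nx-LPi-Lp replicates 2 and 4, against at most 73.4 CPM in every other library. The part of such tissue in the levels described here was not tested. Mitochondrially encoded genes took 4.18% to 6.34% of counts in Sham. They took 19.3% to 27.1% in 5/6 Nx-HPi-Lp, 9.50% to 29.0% in 5/6 Nx-HPi-Hp and 14.2% to 21.1% in 5/6 Nx-LPi-Lp.

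The promoters of Junb and Nr4a1, which with Ier2 were the genes called higher than Sham, and of Jun, which was lower than Sham, are shown from RefSeq (GRCm38.p6), from 250 bases before to 50 bases after the annotated start. Capitals mark TGACG or its reverse complement CGTCA, the core of the cAMP response element bound by CREB and ATF proteins. Coordinates are chr8:84978699-84978998 (minus strand) for Junb, chr15:101266596-101266895 (plus strand) for Nr4a1 and chr4:95052173-95052472 (minus strand) for Jun.
Junb: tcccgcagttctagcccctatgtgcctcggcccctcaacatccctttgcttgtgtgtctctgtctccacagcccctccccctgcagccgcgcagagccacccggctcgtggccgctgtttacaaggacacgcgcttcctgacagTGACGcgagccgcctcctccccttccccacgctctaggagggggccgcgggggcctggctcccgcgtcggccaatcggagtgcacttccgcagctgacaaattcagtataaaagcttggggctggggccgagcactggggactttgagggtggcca
Nr4a1: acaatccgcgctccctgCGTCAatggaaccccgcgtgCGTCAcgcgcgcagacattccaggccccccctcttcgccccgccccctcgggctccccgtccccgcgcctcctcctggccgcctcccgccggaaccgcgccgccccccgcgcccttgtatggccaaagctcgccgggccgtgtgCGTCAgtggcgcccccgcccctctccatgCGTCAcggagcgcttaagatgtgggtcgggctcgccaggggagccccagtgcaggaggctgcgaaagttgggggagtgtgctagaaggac
Jun: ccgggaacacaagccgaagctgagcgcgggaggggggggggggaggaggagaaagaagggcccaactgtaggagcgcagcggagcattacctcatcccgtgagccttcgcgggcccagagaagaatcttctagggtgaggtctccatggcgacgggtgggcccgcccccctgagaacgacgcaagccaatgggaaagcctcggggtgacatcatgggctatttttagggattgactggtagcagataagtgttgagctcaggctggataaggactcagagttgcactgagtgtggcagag
Nr4a1 held 4 cores in this window, Junb 1 and Jun 0. Btg2, not shown, was also lower than Sham in the 2 low-protein 5/6 Nx groups and held 2 cores. Whether cores go with the direction of a change was not tested. Of the 10 genes, 8 had an entry in the promoter table (Egr1 and Ier2 had none), and 6 of those 8 (Fos, Fosb, Junb, Atf3, Nr4a1 and Btg2) held at least 1 core, against 20.8% of the 32851 promoters of the same length. The full element TGACGTCA, whose ends are cores, was in 1 of the 8 (Btg2) and in 1.79% of all promoters. An AP-1 site, TGAGTCA on either strand, was in 0 of the 8 and in 5.2% of all promoters, an EGR site, GCGTGGGCG on either strand, in 0 of the 8 and 0.612%, and a CArG box, the element bound by serum response factor, in 0 of the 8 and 1.63%. The 8 windows held 54.0% to 72.3% G and C, and the promoters set beside them were not matched for this. The part of base composition in these shares was not tested. These are exact matches of letters in a short window and say nothing of sites outside it. They also miss near matches, such as tgacatca in the Jun window, which differs from TGACGTCA by 1 base.

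Per length, the 10 genes spanned a wide range of expression. In the deposited FPKM, averaged over the 16 libraries, Ier2 (85.3) and Junb (76.8) stood highest, followed by Ier3 (39.5), Jun (39.0), Fos (29.4), Egr1 (29.0), Btg2 (25.5) and Nr4a1 (25.03). Atf3 averaged 8.13 FPKM and Fosb 2.06 FPKM. Neighbours in this order had ranges over libraries that overlapped.

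Junb, an AP-1 subunit of the JUN family, was at 89.8, 101, 55.8 and 148 CPM in Sham replicates 1 to 4. It was at 207, 243, 222 and 215 CPM in 5/6 Nx-HPi-Lp, 269, 435, 145 and 189 CPM in 5/6 Nx-HPi-Hp, and 143, 73.0, 43.0 and 235 CPM in 5/6 Nx-LPi-Lp. All 4 mice of 5/6 Nx-HPi-Lp lay above all 4 Sham mice and close to each other, while the other 5/6 Nx groups scattered widely and overlapped with Sham. Junb rose in 5/6 Nx-HPi-Lp over Sham, by 1.22 on the log2 scale (SE 0.25, edgeR quasi-likelihood test, adjusted p = 0.00336), and in 5/6 Nx-HPi-Hp over Sham, by 1.46 (SE 0.37, adjusted p = 0.0187). In 5/6 Nx-LPi-Lp the difference from Sham was 0.40 (SE 0.47, adjusted p = 0.546). By mean level the order was 5/6 Nx-HPi-Hp, 5/6 Nx-HPi-Lp, 5/6 Nx-LPi-Lp and Sham, and no 2 neighbours in it passed the test. Without Sham replicate 3, the lowest Sham library, Junb was higher in 5/6 Nx-HPi-Lp by 0.998 (adjusted p = 0.00362), just under the fold threshold. The call in 5/6 Nx-HPi-Hp was lost without Sham replicate 1 (edgeR adjusted p = 0.0530) and without Sham replicate 2 (edgeR adjusted p = 0.0549).

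Jun, the first described JUN subunit, was instead highest in Sham. Its level was 175, 177, 152 and 158 CPM in Sham, 84.7, 114, 85.2 and 91.9 CPM in 5/6 Nx-HPi-Lp, 144, 141, 92.5 and 150.0 CPM in 5/6 Nx-HPi-Hp, and 107, 121, 91.3 and 117 CPM in 5/6 Nx-LPi-Lp. Every mouse of every 5/6 Nx group lay below every Sham mouse, although the gap between 5/6 Nx-HPi-Hp replicate 4 (150.0) and Sham replicate 3 (152) was within counting error. Against Sham, Jun differed by -0.76 (SE 0.12, adjusted p = 0.000834) in 5/6 Nx-HPi-Lp, by -0.51 (SE 0.12, adjusted p = 0.0106) in 5/6 Nx-LPi-Lp and by -0.26 (SE 0.16, adjusted p = 0.223) in 5/6 Nx-HPi-Hp. The first and second of these pass the adjusted p of 0.05 but stay under the fold threshold of 1 on the log2 scale that a call also needs here. Sham was highest, then 5/6 Nx-HPi-Hp, 5/6 Nx-LPi-Lp and 5/6 Nx-HPi-Lp, and no neighbouring pair in this order passed the test.

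Since Junb was higher and Jun lower, the balance between the 2 subunits shifted. Junb FPKM divided by Jun FPKM was 0.710, 0.791, 0.509 and 1.30 in Sham, 3.38, 2.95, 3.61 and 3.24 in 5/6 Nx-HPi-Lp, 2.59, 4.26, 2.18 and 1.74 in 5/6 Nx-HPi-Hp, and 1.85, 0.834, 0.652 and 2.78 in 5/6 Nx-LPi-Lp. All 8 mice fed 2% phosphorus after 5/6 Nx had a ratio above every Sham mouse, and the 5/6 Nx-LPi-Lp mice overlapped with the Sham range. This ratio was computed after both genes had been seen and was not tested. Junb shares 173 of 2301 exonic bases with Prdx2 on the other strand, which had 1630 to 9255 counts against 590 to 13907 for Junb, and Jun shares 232 of 3189 with its antisense gene Junos, which had 4 to 30 counts. Whether strand was used in counting is not given in the sources used here, and what reads of Prdx2 add to Junb and to this ratio was not tested.

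**Figure D1:**
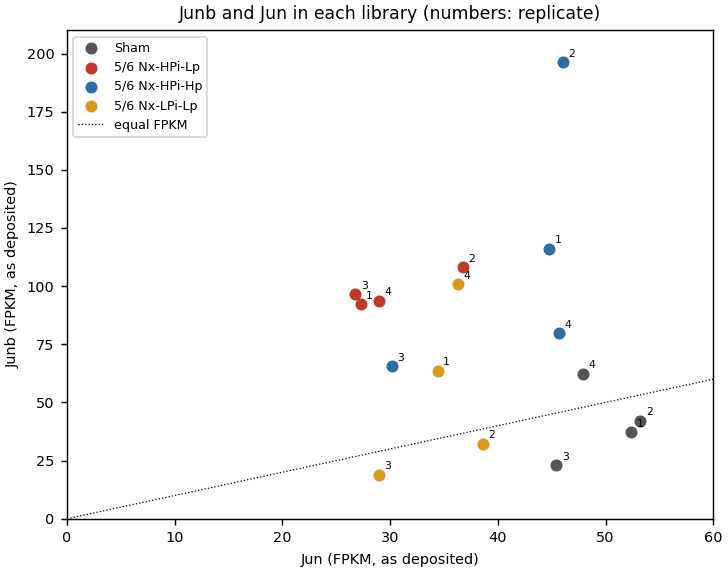
Junb against Jun in each of the 16 libraries, both in FPKM as deposited, coloured by group and numbered by replicate. The dotted line marks equal FPKM, and the 4 libraries of 5/6 Nx-HPi-Lp lie well above it with ratios of 2.95 to 3.61, whereas 3 of 4 Sham libraries lie below it.

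Fos, the partner of JUN proteins in AP-1, was the most variable member. It was at 83.7, 39.0, 20.1 and 85.4 CPM in Sham, 68.3, 78.4, 42.4 and 83.2 in 5/6 Nx-HPi-Lp, 90.0, 211, 33.1 and 95.6 in 5/6 Nx-HPi-Hp, and 75.0, 24.2, 13.98 and 61.0 in 5/6 Nx-LPi-Lp. All 4 groups overlapped, with replicate 3 the lowest in each of them, and the 16 libraries ran from 13.98 to 211 CPM. None of the 6 comparisons passed the test for Fos, with the widest gap for 5/6 Nx-HPi-Hp against 5/6 Nx-LPi-Lp (log2 fold change 1.28, SE 0.61, adjusted p = 0.555). Fosb, a close relative of Fos, was scarce, from 6.52 to 25.9 CPM over all libraries, and it overlapped between all groups with adjusted p of at least 0.374.

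Atf3, a stress-induced member of the ATF/CREB family, was at 13.9, 66.2, 19.4 and 13.2 CPM in Sham and within 11.7 to 14.1 CPM in 5/6 Nx-HPi-Lp. It ranged in 5/6 Nx-HPi-Hp from 7.27 to 22.6 and in 5/6 Nx-LPi-Lp from 8.02 to 28.5 CPM. A single Sham mouse, replicate 2, stood far above the other Sham mice. The difference between 5/6 Nx-HPi-Lp and Sham was -1.02 (SE 0.48, adjusted p = 0.112) with all libraries and -0.18 without Sham replicate 2. The same mouse had the highest Sham levels of the heat shock genes Hspa1a (198 CPM, against 35.5 to 46.1 in the other Sham mice) and Hspa1b (211 CPM, against 35.5 to 51.8). It was also the highest Sham library for Fosb, at 25.9 CPM.

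Egr1, a zinc-finger factor induced by growth factors and injury, was at 164, 139.6, 67.4 and 111 CPM in Sham and 116, 128, 82.4 and 211 CPM in 5/6 Nx-HPi-Lp. It was at 187, 163, 101 and 184 CPM in 5/6 Nx-HPi-Hp and, in 5/6 Nx-LPi-Lp, at 143, 68.2, 50.4 and 169 CPM. The groups overlapped throughout, and the lowest adjusted p of the 6 comparisons was 0.208 (5/6 Nx-HPi-Hp against Sham, log2 fold change 0.46, SE 0.27).

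Nr4a1, an orphan nuclear receptor, was at 55.8, 44.9, 41.5 and 56.4 CPM in Sham, the tightest of the groups. It reached 103, 79.9, 54.1 and 122 CPM in 5/6 Nx-HPi-Lp, 114, 299, 58.4 and 89.1 in 5/6 Nx-HPi-Hp, and 89.4, 68.3, 33.6 and 84.5 in 5/6 Nx-LPi-Lp. All 4 mice of 5/6 Nx-HPi-Hp lay above all 4 Sham mice, the lowest (58.4) above the highest of Sham (56.4) by a gap within counting error, and replicate 2 stood far above the rest. Nr4a1 rose in 5/6 Nx-HPi-Hp over Sham by 1.57 (SE 0.43, adjusted p = 0.0239). That call was lost without 5/6 Nx-HPi-Hp replicate 2 (0.87), without any 1 of the 4 Sham mice (edgeR adjusted p between 0.0504 and 0.0718) and in limma (adjusted p = 0.0535 and 0.0505). It was higher by 0.91 in 5/6 Nx-HPi-Lp (SE 0.23, adjusted p = 0.0113), under the fold threshold, and in 5/6 Nx-LPi-Lp the difference was 0.57 (SE 0.26, adjusted p = 0.123).

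Ier2, a small nuclear protein of the immediate early response, was at 105, 87.0, 61.1 and 109 CPM in Sham and 151, 125, 96.0 and 146 CPM in 5/6 Nx-HPi-Lp. Its level was 194, 255, 141 and 152 CPM in 5/6 Nx-HPi-Hp, above every Sham mouse, and in 5/6 Nx-LPi-Lp at 131, 81.3, 56.8 and 180.3 CPM. Ier2 rose in 5/6 Nx-HPi-Hp over Sham by 1.11 (SE 0.24, adjusted p = 0.0117). The difference of 5/6 Nx-HPi-Lp from Sham was 0.57 (SE 0.21, adjusted p = 0.0475), under the fold threshold. Ier3, a survival factor of stressed cells, ranged from 29.1 to 44.0 CPM in Sham and 41.2 to 71.3 CPM in 5/6 Nx-HPi-Lp, with a difference of 0.51 (SE 0.18, adjusted p = 0.0476). Its levels in 5/6 Nx-HPi-Hp (31.7 to 52.4) and 5/6 Nx-LPi-Lp (32.8 to 47.6) overlapped with both.

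Btg2, an antiproliferative gene that p53 induces, was lower than Sham in the 2 low-protein 5/6 Nx groups. It was at 86.0, 113, 76.3 and 101 CPM in Sham, 42.2, 52.7, 48.6 and 77.7 in 5/6 Nx-HPi-Lp, 87.5, 109, 34.6 and 70.3 in 5/6 Nx-HPi-Hp, and 64.4, 48.0, 42.8 and 70.5 in 5/6 Nx-LPi-Lp. The Sham mice lay above every 5/6 Nx-LPi-Lp mouse and above 3 of 4 mice of 5/6 Nx-HPi-Lp. Against Sham the difference was -0.72 (SE 0.20, adjusted p = 0.0146) in 5/6 Nx-HPi-Lp and -0.65 (SE 0.18, adjusted p = 0.0211) in 5/6 Nx-LPi-Lp, both under the fold threshold. The difference was -0.26 (SE 0.29, adjusted p = 0.511) in 5/6 Nx-HPi-Hp, which did not pass the test against either of the other 5/6 Nx groups.

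**Figure D2:**
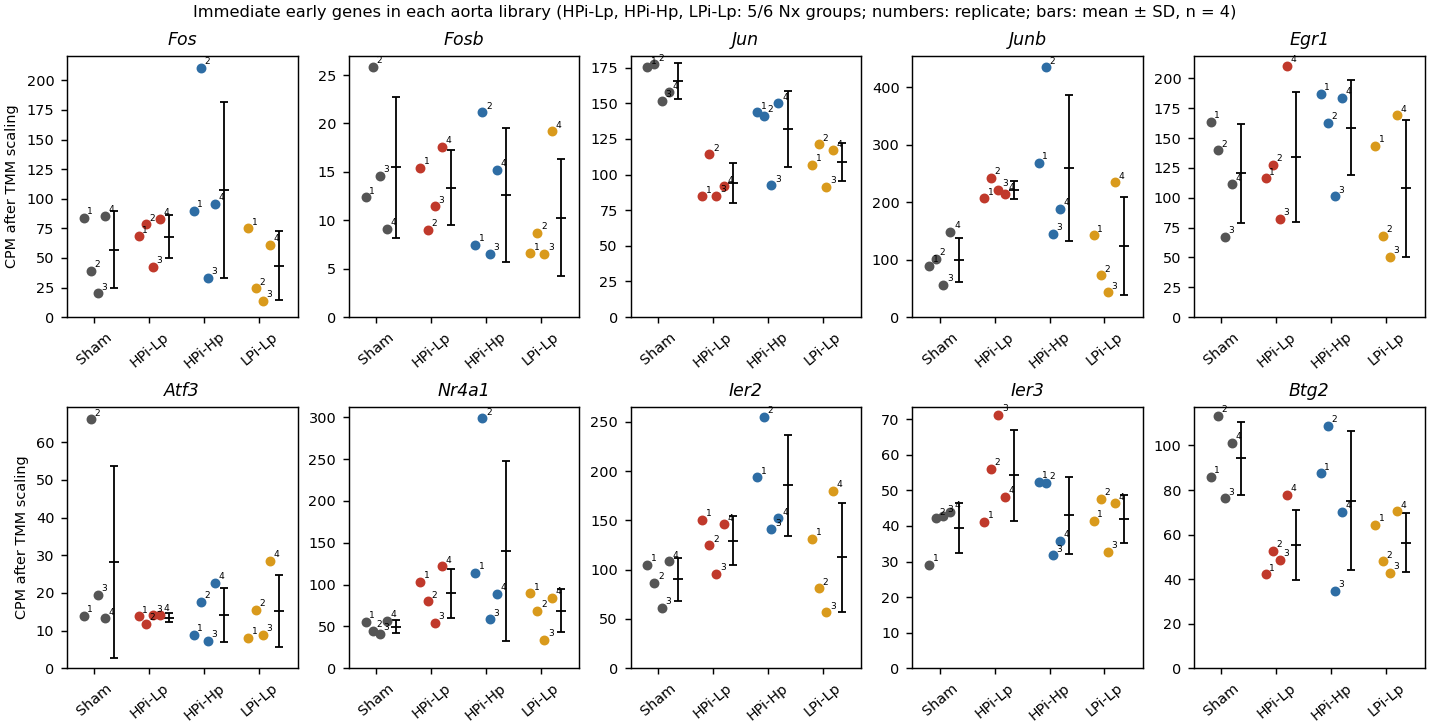
Level of each of the 10 genes in CPM after TMM scaling, with 1 numbered point per library, by group, and the mean ± SD of the 4 libraries beside them. Jun is lower in every 5/6 Nx library than in any Sham library, Junb is tight and high in 5/6 Nx-HPi-Lp (207 to 243 CPM), and replicate 2 of 5/6 Nx-HPi-Hp is the highest library for Fos, Junb, Nr4a1 and Ier2.

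Counted over the comparisons, few of the 10 genes were called, that is, had an adjusted p no higher than 0.05 and a log2 fold change of 1 or more in size. In 5/6 Nx-HPi-Lp against Sham 1 of 10 rose (Junb) and 0 fell, while 15% of the 16513 genes tested were called higher and 7.18% lower. Without a fold threshold 6 of the 10 passed, Junb, Nr4a1, Ier2 and Ier3 higher and Jun and Btg2 lower, against 42.9% of all genes. The median log2 fold change of the 10 was 0.25, while the median of all genes tested lay between -0.02 and 0.02 in each of the 6 comparisons. Without Sham replicate 3 the median of the 10 was -0.0080. Junb and Jun were the 2 of 10 whose groups did not overlap, and 43% of all genes tested had groups that did not overlap. The 1 call and the 2 groups without overlap are thus at or under the share seen over all genes.

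In 5/6 Nx-HPi-Hp against Sham 3 of 10 rose (Junb, Nr4a1 and Ier2) and 0 fell, while 9.41% of 15882 genes were called higher and 2.75% lower. That split of calls over all genes, 1495 higher and 437 lower, became 972 higher and 892 lower with scaling by total counts, under which the median of all genes was -0.19, and Ier2 then stayed under the fold threshold (0.89). Only 1 of these 3 calls was left when Sham replicate 1, 2 or 3 or 5/6 Nx-HPi-Hp replicate 2 was left out, and Nr4a1 was at 0.87 without the last of these. The groups of 3 of the 10 genes (Jun, Nr4a1 and Ier2) did not overlap, beside 33.8% of all genes.

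In 5/6 Nx-LPi-Lp against Sham 0 of 10 were called, while 8.79% of 16071 genes were called higher and 2.08% lower (1413 and 335 genes, or 1048 and 842 with total-count scaling, under which the median of all genes was -0.22). Jun and Btg2 passed the adjusted p alone, both lower, beside 31.8% of all genes that passed the adjusted p. An unadjusted p under 0.05 was found for 2 of 10 members and for 43.7% of all genes. DESeq2 called 0 of 10 as well. The 3 comparisons with Sham share the same 4 Sham libraries, so their values are not independent of each other.

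Between the 5/6 Nx groups no member was called by edgeR or DESeq2. In 5/6 Nx-HPi-Lp against 5/6 Nx-HPi-Hp, which differ in dietary protein, 0 of 10 were called, while 5.01% of 16198 genes were called higher and 3.11% lower. 1 member, Jun, had an unadjusted p under 0.05 (log2 fold change -0.48, SE 0.19, adjusted p = 0.114), beside 30.9% of all genes. The median of the 10 was -0.34, and -0.032 without 5/6 Nx-HPi-Hp replicate 2. In 5/6 Nx-HPi-Lp against 5/6 Nx-LPi-Lp, which differ in dietary phosphorus, 0 of 10 were called and 0 had an unadjusted p under 0.05, while 7.9% of 16253 genes were called higher and 3.98% lower. Over all genes 35.7% had an unadjusted p under 0.05 there. Junb came nearest there (0.86, SE 0.43, adjusted p = 0.182). The median of the 10 was 0.35, from 0.13 without 5/6 Nx-LPi-Lp replicate 3 to 0.53 without 5/6 Nx-LPi-Lp replicate 4. Junb was called, at 1.38, when 5/6 Nx-LPi-Lp replicate 4 was left out, the highest Junb library of its group.

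In 5/6 Nx-HPi-Hp against 5/6 Nx-LPi-Lp 0 of 10 were called and 0 had an unadjusted p under 0.05. Over all 15850 genes tested 0% were called higher and 0% lower by edgeR, 8.96% had an unadjusted p under 0.05, and DESeq2 called 78. Of the 10 genes, 9 were higher in 5/6 Nx-HPi-Hp, with Fos (1.28), Junb (1.06) and Nr4a1 (1.01) leading. The median was 0.47, from 0.27 without 5/6 Nx-HPi-Hp replicate 2 to 0.80 without 5/6 Nx-LPi-Lp replicate 4. None of these had an adjusted p under 0.555.

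**Figure D3:**
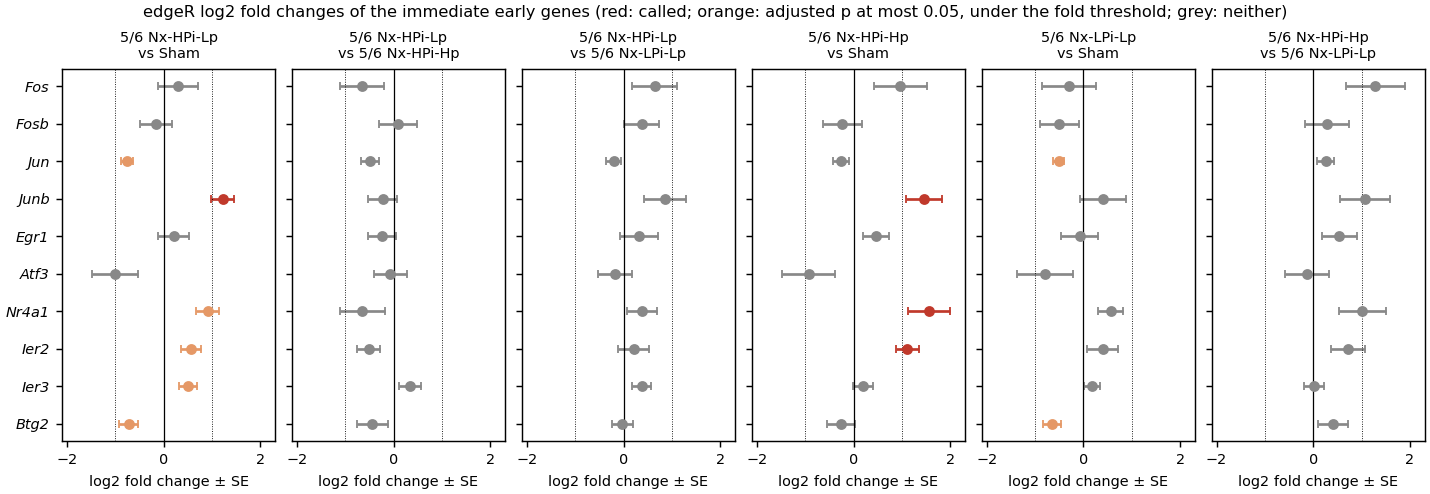
Log2 fold change ± SE of the 10 genes in each of the 6 comparisons (edgeR, n = 4 against 4), with dotted lines at the fold threshold. Red points were called, orange points passed the adjusted p alone, and the calls (2 of Junb and 1 each of Nr4a1 and Ier2) all lie in comparisons with Sham.

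The spread between mice of 1 group was large for most of these genes. The within-group SD of log2 expression was 0.94 for Fos, larger than for 98.9% of the 9956 genes with a mean of at least 10 CPM, 0.75 for Atf3, 0.70 for Junb, 0.65 for Nr4a1, 0.62 for Fosb and 0.61 for Egr1. Ier2 (0.48), Btg2 (0.45) and Ier3 (0.31) were lower, and Jun (0.22) was below the median of 0.24 over all these genes. The median of the 10 was 0.61. Junb was narrow in 5/6 Nx-HPi-Lp, with a highest library 1.17 times the lowest, against 2.66 times in Sham, 2.99 times in 5/6 Nx-HPi-Hp and 5.46 times in 5/6 Nx-LPi-Lp. Atf3 was narrow there too, at 1.20 times, against 5.00, 3.11 and 3.56 times in the same order. Fos, Fosb and Ier2 also had their lowest such ratio in 5/6 Nx-HPi-Lp, whereas Jun, Egr1, Nr4a1, Ier3 and Btg2 did not.

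The members also deviated together from mouse to mouse. Replicate 3 was the lowest library of its group for 10 of 10 genes in 5/6 Nx-HPi-Hp, for 9 of 10 in 5/6 Nx-LPi-Lp and for 7 of 10 in Sham, and for 4 of 10 in 5/6 Nx-HPi-Lp. The labels do not say whether replicate numbers link mice across groups, and the numbers were not taken to do so here. The highest library was replicate 2 for 6 genes in 5/6 Nx-HPi-Hp and replicate 4 for 6 genes in both 5/6 Nx-LPi-Lp and 5/6 Nx-HPi-Lp. Summed over the 10 genes, 5/6 Nx-HPi-Hp ran from 652 to 1703 CPM and 5/6 Nx-LPi-Lp from 380.1 to 1011 CPM, each wider than the 551 to 837 CPM of Sham and the 727 to 1027 CPM of 5/6 Nx-HPi-Lp.

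Across the 16 libraries, the deviations from group means correlated positively in all 45 pairs of members, with a median Pearson r of 0.50. The closest pairs were Junb with Ier2 (0.91), Fos with Ier2 (0.88) and Fosb with Atf3 (0.88), and the lowest was 0.01. These are descriptions over 16 libraries that share sequencing depth and scaling within each library, and they were computed after the data were seen. The low libraries were alike in some measures of makeup and differed in others. Replicate 3 had the highest endothelial sum of its group in Sham (1052 CPM), 5/6 Nx-HPi-Hp (915 CPM) and 5/6 Nx-LPi-Lp (921 CPM). In 5/6 Nx-HPi-Lp it had the lowest (805 CPM). Replicate 3 of 5/6 Nx-HPi-Hp had the lowest smooth muscle sum of its group (6548 CPM), the highest adipocyte sum (6731 CPM) and the second-highest mitochondrial share (25.03%). Replicate 3 of 5/6 Nx-LPi-Lp had the second-highest smooth muscle sum of its group (12528 CPM), the second-highest adipocyte sum (3838 CPM) and the lowest mitochondrial share (14.2%). The part of these measures in the shared deviations was not tested.

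**Figure D4:**
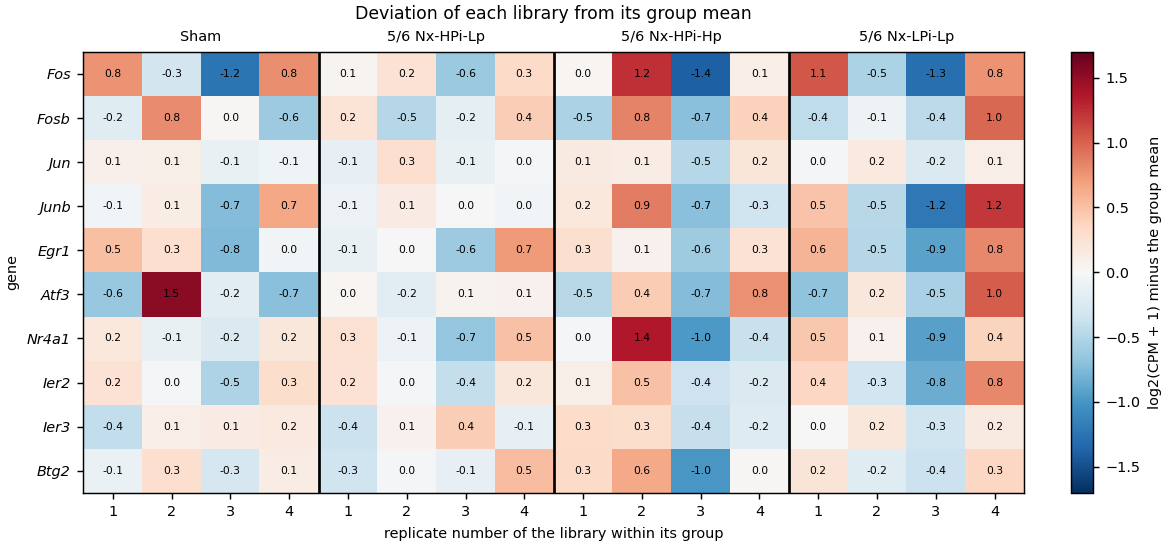
Deviation of each library from the mean of its group in log2(CPM + 1), with 1 row per gene, 1 column per library and the value printed in each cell. Columns tend to share a sign, with replicate 3 of 5/6 Nx-HPi-Hp below its group mean for all 10 genes.

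The genes whose mouse-to-mouse pattern was most like that of the 10, among 11633 others with a mean of at least 5 CPM, were Dusp1 (Pearson r = 0.89, Spearman rho = 0.82, over 16 libraries), Srpk2 (0.85 and 0.84), Dhx38 (0.81 and 0.69), Cyr61 (0.79 and 0.59) and Ppp1r15a (0.79 and 0.58). Dusp1 encodes a phosphatase that switches off MAP kinases and is itself an immediate early gene, as are Cyr61, a matricellular protein, and Ppp1r15a, a stress-induced phosphatase subunit. Srpk2 and Dhx38 are on none of the gene lists used here. Without 5/6 Nx-HPi-Hp replicate 3 the Pearson r was 0.68 for Cyr61 and 0.63 for Ppp1r15a. Dusp1 was at 316, 555, 223 and 366 CPM in 5/6 Nx-HPi-Hp, the order of Fos, with replicate 2 highest and replicate 3 lowest. It was at 324, 292, 231 and 372 CPM in Sham, 162, 205, 146 and 199.7 CPM in 5/6 Nx-HPi-Lp, and 245, 192, 154 and 259 CPM in 5/6 Nx-LPi-Lp. All 4 mice of 5/6 Nx-HPi-Lp lay under all 4 of 5/6 Nx-HPi-Hp, and Dusp1 fell there by 1.03 on the log2 scale (SE 0.27, adjusted p = 0.0367).

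A broader list of 48 other immediate early genes, 47 of them tested, had 13 called higher and 1 lower in 5/6 Nx-HPi-Lp against Sham, with a median log2 fold change of 0.62, where 15% of all genes were called higher and 7.18% lower. Ptgs2, the inducible cyclooxygenase, rose from 3.16 to 7.80 CPM in Sham to 31.5 to 84.7 CPM in 5/6 Nx-HPi-Lp (log2 fold change 3.16, SE 0.38, adjusted p = 0.000198). Socs3, a feedback inhibitor of cytokine signalling, rose from 10.4 to 13.1 CPM to 34.5 to 131 CPM (2.76, SE 0.36, adjusted p = 0.000283). Mafk, a small MAF protein, was the only one called lower (-1.04, SE 0.16, adjusted p = 0.000627). Ptgs2 and Socs3 were also called higher in 5/6 Nx-HPi-Lp than in 5/6 Nx-HPi-Hp (2.65 and 2.36) and 5/6 Nx-LPi-Lp (3.34 and 3.01).

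The same list had 8 genes higher and 1 lower in 5/6 Nx-HPi-Lp against 5/6 Nx-HPi-Hp, 8 and 0 against 5/6 Nx-LPi-Lp, 8 and 2 in 5/6 Nx-HPi-Hp against Sham, 5 and 3 in 5/6 Nx-LPi-Lp against Sham, and 0 and 0 for 5/6 Nx-HPi-Hp against 5/6 Nx-LPi-Lp. Over all genes the shares called higher and lower were, in the same order, 5.01% and 3.11%, 7.9% and 3.98%, 9.41% and 2.75%, 8.79% and 2.08%, and 0% and 0%. Whether the list differs from the 10 was not tested.

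Upstream of these genes, 2 of 26 inducers of immediate early transcription were called higher and 3 lower in 5/6 Nx-HPi-Lp against Sham, with a median of -0.02, beside the 15% and 7.18% of all genes. Rps6ka1, a kinase downstream of ERK, rose (1.87, SE 0.25, adjusted p = 0.000314), as did the ternary complex factor Elk3 (1.01, SE 0.24, adjusted p = 0.00832). Mef2c (-1.63, SE 0.13) and Srf (-1.41, SE 0.14), which encodes serum response factor, fell, with Srf at 91.9 to 112 CPM in Sham and 31.8 to 47.6 CPM in 5/6 Nx-HPi-Lp. Both encode factors of the smooth muscle program, and the smooth muscle sum fell in the same mice. The part of that sum in the lower Srf and Mef2c was not tested. Map2k6, a kinase that activates p38, was the other gene called lower (-1.07, SE 0.28, adjusted p = 0.0127), named here after its value was seen. In the other comparisons the list had 1 higher and 0 lower against 5/6 Nx-HPi-Hp and against 5/6 Nx-LPi-Lp, 1 and 1 in both remaining comparisons with Sham, and 0 and 0 for 5/6 Nx-HPi-Hp against 5/6 Nx-LPi-Lp. The shares over all genes are those given above for the same comparisons. In 5/6 Nx-LPi-Lp against Sham the calls were Rps6ka1 (1.09, SE 0.20, edgeR adjusted p = 0.00473) and Mef2c (-1.04, SE 0.23, edgeR adjusted p = 0.00852). Srf was also lower there (-0.77, SE 0.15, edgeR adjusted p = 0.00529), under the fold threshold.

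Among 17 feedback inhibitors of the response, 3 were called higher and 0 lower in 5/6 Nx-HPi-Lp against Sham, with a median of 0.24, so that the share called higher was near the 15% of all genes. These were the MAP kinase phosphatases Dusp4 (1.75, SE 0.22, adjusted p = 0.000222), Dusp6 (1.12, SE 0.15, adjusted p = 0.000346) and Dusp5 (1.06, SE 0.29, adjusted p = 0.0157), the last outside the naming rule. Dusp6 was at 58.1 to 64.5 CPM in 5/6 Nx-HPi-Lp and 20.9 to 35.6 CPM in Sham. Against 5/6 Nx-HPi-Hp 4 were higher and 1 lower (Dusp1), against 5/6 Nx-LPi-Lp 2 and 0. The list had 0 higher and 1 lower in 5/6 Nx-HPi-Hp against Sham, 1 and 0 in 5/6 Nx-LPi-Lp against Sham, and 0 and 0 between those 5/6 Nx groups. The shares over all genes are those given above for the same comparisons. Dusp4 was the gene called in 5/6 Nx-LPi-Lp against Sham (2.84, SE 0.45, edgeR adjusted p = 0.00344). It was at 18.1 to 77.9 CPM in 5/6 Nx-LPi-Lp and 13.7 to 25.7 CPM in 5/6 Nx-HPi-Lp. Dusp6 was not called in 5/6 Nx-LPi-Lp against Sham, at 24.0 to 65.9 CPM in 5/6 Nx-LPi-Lp.

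In a list of 14 AP-1 targets, 11 of the 13 tested genes were called higher in 5/6 Nx-HPi-Lp against Sham and 0 lower, with a median log2 fold change of 2.05 and beside 15% of all genes called higher. Like the other lists besides the 10, it was written with earlier results of these data known, so its count is not independent of them. Whether AP-1 acted on these genes here was not tested. Spp1, which encodes osteopontin, went from 0.918 to 1.58 CPM in Sham to 246 to 1249 CPM (9.11, SE 0.58), and Timp1, an inhibitor of matrix metalloproteinases, from 13.3 to 18.3 CPM to 120.0 to 719 CPM (4.77, SE 0.51). Against 5/6 Nx-HPi-Hp 8 were higher and 0 lower, and against 5/6 Nx-LPi-Lp 10 and 0. In 5/6 Nx-HPi-Hp against Sham 2 rose and 1 fell, in 5/6 Nx-LPi-Lp against Sham 0 rose and 1 fell (Mmp3), and 0 moved between those 5/6 Nx groups. The shares over all genes are those given above for the same comparisons. In the same libraries all 7 macrophage markers were called higher, with a sum of 596 to 1970 CPM in 5/6 Nx-HPi-Lp against 158 to 263 in Sham, as were 4 of 4 tested neutrophil markers (18.0 to 67.7 against 1.27 to 6.32 CPM), and all 7 smooth muscle markers were called lower. Markers of other cells moved too. Called higher were 6 of 7 adipocyte markers (3185 to 5601 against 495 to 1252 CPM), 4 of 4 tested sympathetic neuron markers (38.7 to 1017 against 11.1 to 13.9 CPM), 4 of 5 Schwann cell markers (53.8 to 562 against 44.4 to 49.4 CPM), 3 of 7 fibroblast markers (2958 to 12384 against 1923 to 3038 CPM) and 3 of 7 endothelial markers (805 to 1011 against 694 to 1052 CPM). All 5 erythroid markers were called lower (188 to 379.3 against 378.5 to 3993 CPM, the last in Sham replicate 1). So were 3 of 6 tested T cell and thymocyte markers (1.90 to 7.71 against 10.8 to 66.6 CPM) and 3 of 4 tested skeletal muscle markers (5.17 to 13.2 against 9.17 to 73.4 CPM). The part of all these cells in the rise of the AP-1 targets and of the other immediate early genes was not tested.

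Heat shock genes, which respond to some of the same stresses, were called in 1 direction only against Sham, and most were not called. Of 12, 0 were called higher and 5 lower in 5/6 Nx-HPi-Lp against Sham, 3 lower in 5/6 Nx-HPi-Hp and 4 lower in 5/6 Nx-LPi-Lp against Sham, and 0 in either direction among the 5/6 Nx groups. Over all genes 7.18%, 2.75% and 2.08% were called lower in these comparisons with Sham, and 15%, 9.41% and 8.79% higher. The median log2 fold changes of the list were -0.51, -0.62 and -0.58 in the same order. Among the 5/6 Nx groups the shares over all genes are those given above. Hspd1 was higher in 5/6 Nx-LPi-Lp than in Sham by 0.94 (edgeR adjusted p = 0.0143), under the fold threshold. Hspa1a was at 35.5 to 198 CPM in Sham and 9.22 to 16.7 CPM in 5/6 Nx-HPi-Lp (-2.66, SE 0.57, adjusted p = 0.0045), and Hspa1b at 35.5 to 211 and 16.8 to 24.9 CPM (-2.02, SE 0.55, adjusted p = 0.0142). The near-identical sequences of this pair make the split of reads between them uncertain.

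**Figure D5:**
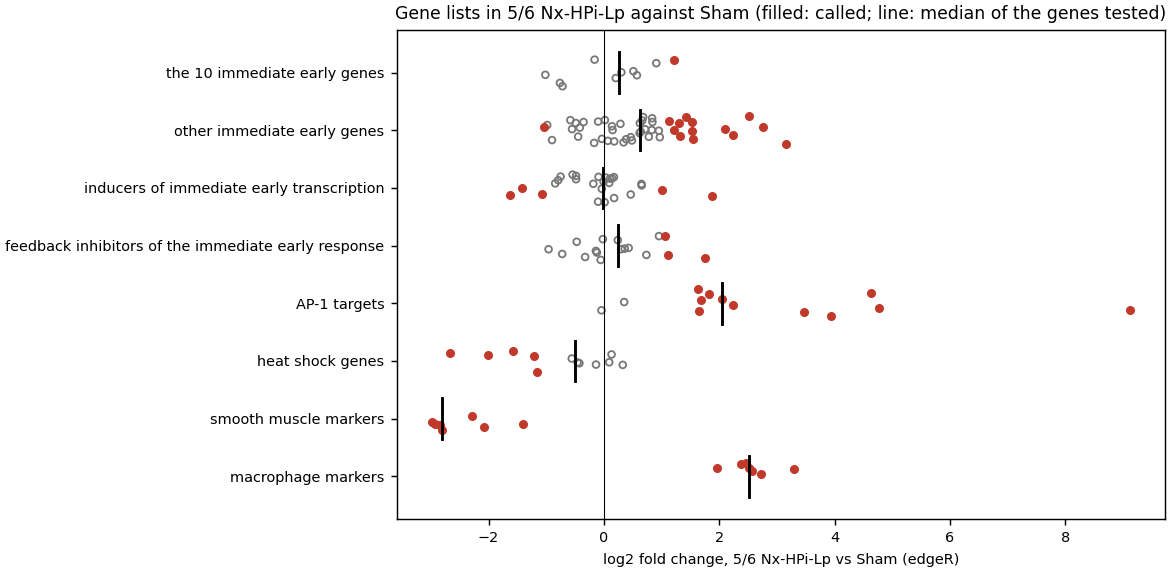
Log2 fold change of every tested gene of each list in 5/6 Nx-HPi-Lp against Sham (edgeR), filled where called, with the median as a line. The 10 genes centre at 0.25, the AP-1 targets at 2.05, and the smooth muscle and macrophage markers at -2.80 and 2.52.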

How the data were processed

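RNA-Seq was performed on the aortas of 16 mice, 4 per group, grouped by the labels of the deposited samples. mRNA was selected with poly-T beads. According to the study's methods and processing notes, the authors aligned reads to mm10 with HISAT2 and counted them with featureCounts 1.5.0-p3. They deposited whole-number counts for 54532 genes, not normalized, and FPKM, in which the deposited values were already scaled between libraries (DESeq2 size factors, checked, ratio 1 in all 16). Counting options are not given in the sources used here. The library totals of 13659525 to 57276915 counts limit precision only for scarce genes, and intervals of counting error do not cover differences between mice. No 2 libraries of a group were copies (lowest chi-square per gene 21.9).

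Counts were tested with edgeR 4.0.16 in R 4.3.3 (filterByExpr, TMM scaling, quasi-likelihood test on the 8 libraries compared, Benjamini-Hochberg over all genes tested). A call needed an adjusted p no higher than 0.05 and a log2 fold change of 1 or more in size. SE is the log2 fold change over the square root of F. CPM were computed after TMM over all 16 libraries. The scripts were tested on simulated data. As alternatives, scaling was by RLE or by total counts, the test was DESeq2 1.42.0 or limma 3.58.1 (genes with mean FPKM over 0.5, pseudocount 1 or 0.1), genes were kept without a filter or with 10 counts or more throughout, the 16 libraries shared one fit, a replicate block was added, and mitochondrially encoded genes, the fold threshold or each library in turn were left out. The 10 genes were named by the request, and the other lists, drawn from general knowledge, were written with earlier results of these data known. All 10 are described, and from each other list the 2 called genes highest and the 2 lowest in 5/6 Nx-HPi-Lp against Sham are named, with the 5 genes most alike in deviation from group means and marker genes where a list moves. Within-group SDs, correlations between members, the Junb to Jun ratio and promoter motifs were added after the data were seen. Promoters are from RefSeq (GRCm38.p6), and exon overlaps from GENCODE vM21. Figures used Python 3.11.15 and matplotlib 3.10.9.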

Additional observations from a re-analysis of the deposited data

Results flagged for a closer look

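In 40 groups of 4 libraries, 1 per gene and group, Dixon's test was applied to the highest and the lowest library, and chance alone flags about 1 group in 20. It flagged 4 values. Jun was at 92.5 CPM in 5/6 Nx-HPi-Hp replicate 3, while the other 3 mice of the group were at 141 to 150.0 CPM. This was the library in which all 10 immediate early genes were lowest for the group. Atf3 was at 66.2 CPM in Sham replicate 2, against 13.2 to 19.4 CPM in the other Sham mice. Atf3 was also flagged in 5/6 Nx-HPi-Lp replicate 2, at 11.7 CPM against 13.7 to 14.1 CPM, a narrow gap in a narrow group. Ier3 was at 29.1 CPM in Sham replicate 1, against 42.1 to 44.0 CPM in the other Sham mice. The cause of these deviations was not tested.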

How the results depend on the processing

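The counts of members called kept within 1.5 times of the reported ones under every alternative other than those named here. With no fold threshold, 5/6 Nx-HPi-Lp against Sham gave 4 higher and 2 lower in place of 1 and 0, and 5/6 Nx-LPi-Lp against Sham gave 2 lower in place of 0. When each library was left out in turn, members called higher ranged from 0 to 2 in 5/6 Nx-HPi-Lp against Sham (0 without Sham replicate 3, 2 without 5/6 Nx-HPi-Lp replicate 3, where Nr4a1 joined Junb at 1.10), from 0 to 1 in 5/6 Nx-HPi-Lp against 5/6 Nx-LPi-Lp and from 1 to 3 in 5/6 Nx-HPi-Hp against Sham. There Junb ranged from 1.08 to 1.73, Nr4a1 from 0.87 to 1.81 and Ier2 from 0.91 to 1.21, and Nr4a1 also missed the adjusted p in limma (1.25, adjusted p = 0.0535, and 1.30, adjusted p = 0.0505). Junb missed the adjusted p without Sham replicate 1 (1.41, edgeR adjusted p = 0.0530) and without Sham replicate 2 (1.48, edgeR adjusted p = 0.0549).

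Signs turned only for members that had not passed the test. In 5/6 Nx-HPi-Lp against 5/6 Nx-HPi-Hp, Atf3 (-0.07) became 0.054 and 0.080 in limma and 0.076 with the replicate block. Against 5/6 Nx-LPi-Lp, Btg2 (-0.03) became 0.041 with total-count scaling and 0.028 without mitochondrially encoded genes, and Atf3 (-0.18) became 0.0089 in limma with the smaller pseudocount and 0.0051 with the block. With total-count scaling Ier3 became -0.020 in 5/6 Nx-HPi-Hp against Sham (0.19) and -0.061 in 5/6 Nx-LPi-Lp against Sham (0.18). Ier3 in 5/6 Nx-HPi-Hp against 5/6 Nx-LPi-Lp (0.02) became -0.00019 with the block.

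With each library left out, the ranges that crossed 0 were these. The median of the 10 ranged from -0.0080 to 0.38 in 5/6 Nx-HPi-Lp against Sham and from -0.44 to 0.069 in 5/6 Nx-LPi-Lp against Sham, while the other 4 medians kept their sign. For single genes in 5/6 Nx-HPi-Lp against Sham they were Fos -0.00081 to 0.55, Fosb -0.36 to 0.18 and Egr1 -0.080 to 0.39. Against 5/6 Nx-HPi-Hp they were Fosb -0.14 to 0.45, Junb -0.43 to 0.14, Atf3 -0.29 to 0.24 and Nr4a1 -0.91 to 0.037. Against 5/6 Nx-LPi-Lp they were Atf3 -0.41 to 0.33 and Btg2 -0.22 to 0.11. In 5/6 Nx-HPi-Hp against Sham it was Fosb, -0.61 to 0.13. In 5/6 Nx-LPi-Lp against Sham they were Junb -0.10 to 0.68, Egr1 -0.37 to 0.16 and Atf3 -1.28 to 0.062. For 5/6 Nx-HPi-Hp against 5/6 Nx-LPi-Lp they were Fosb -0.10 to 0.76, Atf3 -0.44 to 0.36 and Ier3 -0.092 to 0.14. The cause was not tested.

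Replicate numbers were not taken to pair mice, since same-numbered deviations correlated at -0.35 to 0.67 and above 0.1 in 6 of 24 pairs. Of these 6, 3 were in 5/6 Nx-HPi-Hp against 5/6 Nx-LPi-Lp (0.29, 0.26, -0.087 and 0.67 for numbers 1 to 4), where the block took members with an unadjusted p under 0.05 from 0 to 5. A replicate block changed no call of a member, but over all genes it gave 371 calls in place of 1315 against 5/6 Nx-HPi-Hp, 1271 in place of 1931 against 5/6 Nx-LPi-Lp, and 10 in place of 0 in 5/6 Nx-HPi-Hp against 5/6 Nx-LPi-Lp. Over all genes in the order of the report's comparisons with Sham (5/6 Nx-HPi-Lp, 5/6 Nx-HPi-Hp, 5/6 Nx-LPi-Lp), limma on log2(FPKM + 1) gave 2057, 878 and 870 calls in place of 3666, 1932 and 1748. Of 5/6 Nx-HPi-Lp it gave 783 calls against 5/6 Nx-HPi-Hp (DESeq2 2094) and 1068 against 5/6 Nx-LPi-Lp, in place of 1315 and 1931. Fitting all 16 libraries together gave 2011 against 5/6 Nx-HPi-Hp, and dropping the fold threshold gave 7089, 4990, 5115, 2113 and 3262 calls for the 3 comparisons with Sham and then these 2. With libraries left out, calls against 5/6 Nx-HPi-Hp fell to 638 when 5/6 Nx-HPi-Lp replicate 4 was left out and to 682 for 5/6 Nx-HPi-Hp replicate 2, those against 5/6 Nx-LPi-Lp to 1278 (without 5/6 Nx-HPi-Lp replicate 4), and those in 5/6 Nx-HPi-Hp against Sham ranged from 1091 (without Sham replicate 2) to 3161 (without 5/6 Nx-HPi-Hp replicate 4). In 5/6 Nx-HPi-Hp against 5/6 Nx-LPi-Lp, with 0 calls, DESeq2 gave 78 and no count filter 12. Depth was ample for the members, which had at least 87 counts in every library.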
